A study of Homo sapiens with 5 samples.

Results

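The genes described here are 44 secreted factors, receptors, proteases and inhibitors of blood vessel growth, taken by symbol from a list of angiogenesis genes. That list was written with earlier results of these data known. All 44 were found among the 20026 genes with FPKM values (a fragment count divided by transcript length and library size, so that levels of different genes can be compared). RNA-seq had been carried out on 5 samples of HCT116, a human colorectal carcinoma cell line: 2 control samples transduced with the pLKO.1 lentiviral vector and 3 knockdown samples named shELK4_1 to shELK4_3. The names of the latter match those of the 3 hairpins of the study against ELK4, an ETS family transcription factor. Each was therefore taken to carry a different hairpin, which the labels do not state. All 5 samples came from stable lines selected with puromycin and carried no other treatment, with 1 sample for each hairpin. Nothing in the labels says that the controls were separate transductions or the samples separate experiments. The p-values below thus measure only the spread between these samples.

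Angiogenesis is the growth of new vessels from existing ones. Tumor cells take part mainly as a source of signals: ligands such as the VEGF, FGF and PDGF families act on receptors of endothelial cells and pericytes, heparan sulfate in the matrix stores many of these ligands, and proteases and sulfatases release them. Inhibitors such as thrombospondin-1, endostatin and the tissue inhibitors of metalloproteinases oppose them. An RNA level in the carcinoma cell shows what it could secrete, not what reached the medium.

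ELK4 itself had 8.62 and 7.60 FPKM in the pLKO.1 samples and 3.14, 2.82 and 2.44 FPKM in shELK4_1, shELK4_2 and shELK4_3, a log2 fold change of −1.26 (standard error, SE, 0.12, limma adjusted p = 0.029). The steps between low FPKM values put the depth of the other samples at 88.4% to 94.1% of that of pLKO.1_1. A rough estimate of that depth was 24700000 fragments (quartiles 20900000 and 29900000 over 66 genes with 1 annotated transcript). At this depth 1 fragment on a transcript of 2000 bases is worth 0.02 FPKM, and an FPKM of 1 rests on 49 fragments, counting error only. The epithelial markers EPCAM and CDH1 were present in every sample, at 118 to 166 FPKM and 10.3 to 23.1 FPKM, while VIL1 and CEACAM5, which mark differentiated or colonic epithelium, stayed under 0.06 FPKM. Of 6 tested epithelial markers, 4 had an unadjusted p under 0.05, all of them keratins and all lower in the knockdown samples, and their part in the results below was not tested. KRT18, for example, had 639 and 634 FPKM with the vector and 397, 216 and 303 FPKM in the knockdown samples. The summed level of 10 endothelial markers was 3.79 to 4.21 FPKM with the vector and 3.40 to 4.28 FPKM in the knockdown samples, nearly all of it ESAM, and CDH5, FLT1, CLDN5 and EMCN were listed at 0 everywhere. The sums for 8 fibroblast and pericyte markers (5.94 to 6.17 FPKM against 6.38 to 7.55 FPKM) and 6 leukocyte markers (6.19 to 7.38 FPKM against 5.42 to 14.3 FPKM) were low too.

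Of the 44 genes, 32 had 2 or more samples with an FPKM of 1 or higher and were tested, and 12 stayed below that limit. The level of the 32 spanned more than 2 orders of magnitude. The highest mean over all 5 samples was that of MDK at 96.3 FPKM, followed by HDGF at 87.6 FPKM, TIMP1 at 78.4 FPKM, GRN at 59.1 FPKM and ADM at 45.1 FPKM. These lie among the top 10.7% of the 10780 tested genes. VEGFA had a mean of 9.79 FPKM and ranked in the middle (45.4% from the top). Within the summed FPKM of the 19 secreted promoters of this list, GRN and the heparin-binding factors MDK and HDGF together held 62.7% to 75.1% in every sample. Secreted factors outside these 19 were not part of that sum.

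**Figure D1:**
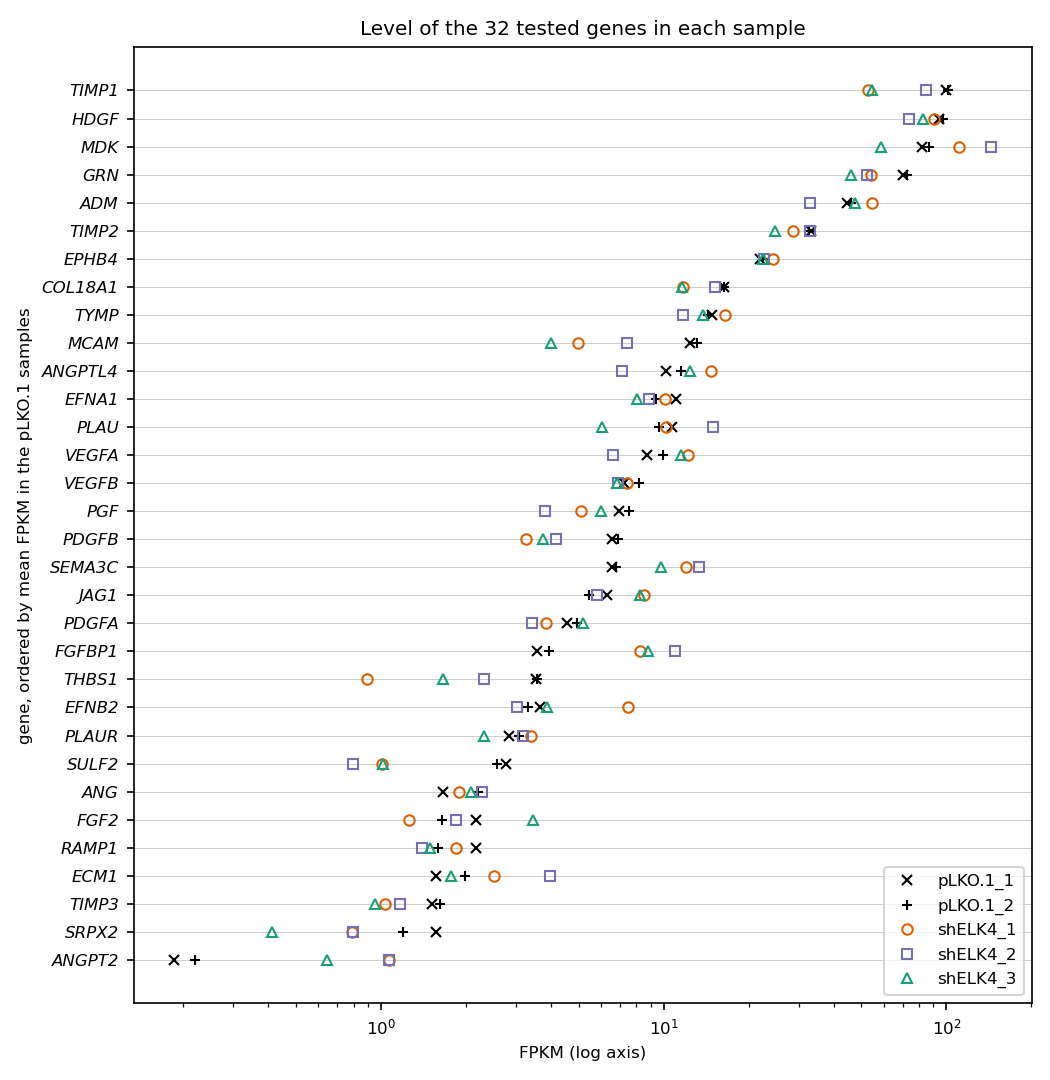
FPKM (log axis) of the 32 tested genes in each of the 5 samples, ordered by their mean in the pLKO.1 samples, with crosses for the 2 controls and open symbols for the 3 hairpins. The 2 controls lie close together for most genes, and the open symbols of MCAM, THBS1, SULF2 and PDGFB all lie to their left, those of FGFBP1, SEMA3C and ANGPT2 to their right.

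On log2(FPKM + 1), 1 of the 32 genes, SULF2, had an adjusted p under 0.05 from limma, a limit passed by 0.167% of all tested genes. With an unadjusted p under 0.05, 10 of the 32 were lower in the knockdown samples, where 8.14% of all tested genes were, and 3 were higher, where 8.08% were. All 3 knockdown samples lay below both controls for 11 of the 32 (21.0% of all tested genes) and above both for 3 of the 32 (19.1% of all tested genes). The median log2 fold change was −0.08 over the 32 genes and −0.009 over all tested genes. These counts are descriptions, since ANGPT2 reached the limit only through shELK4_1 and shELK4_2 and SRPX2 only through the controls, so that both had to differ. The study had called SULF2, MCAM, THBS1, SRPX2, FGFBP1, ANGPT2, FGF1 and CALCRL on these same samples, so their directions here are not independent evidence. Because RNA came from whole cultures, fewer cells with a transcript and less of it per cell cannot be told apart.

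**Figure D2:**
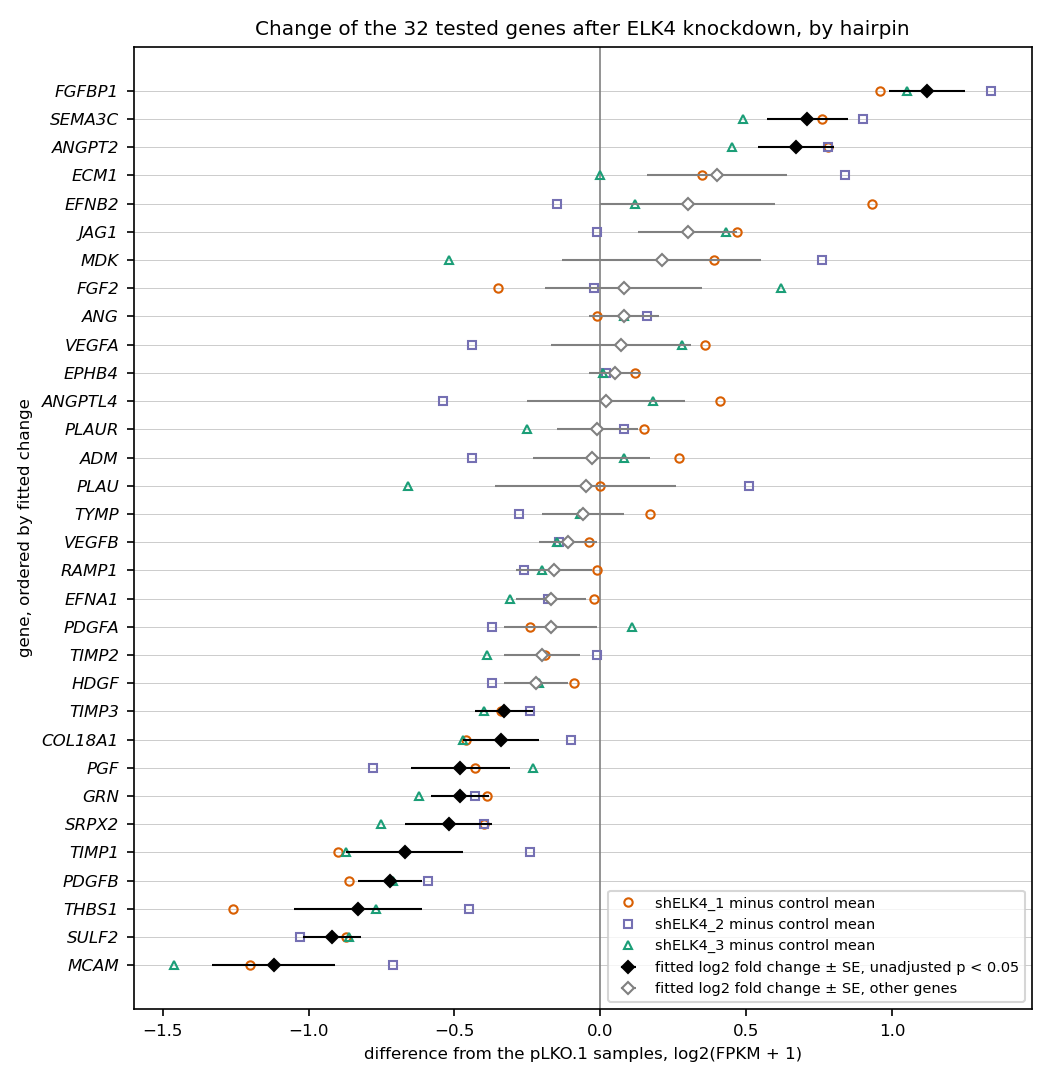
Difference from the pLKO.1 samples on the log2(FPKM + 1) scale for the 32 tested genes. Diamonds with bars are the fitted log2 fold change ± standard error (black for an unadjusted p under 0.05), and open symbols are each hairpin minus the mean of the 2 controls. Of the 13 black diamonds, 10 lie left of 0 and 3 right of it, and the hairpins of MDK, PLAU and EFNB2 spread over more than 1 log2 unit.

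SULF2 and FGFBP1 both act on growth factors held by the matrix, and their differences from the controls had opposite signs. SULF2 (ENSG00000196562) encodes a secreted sulfatase that trims heparan sulfate and thereby alters which ligands it holds. The gene spans 47656197 to 47786616 of chromosome 20 (GRCh38, minus strand), and 6.6% of its exonic bases are shared, NCOA3 being one of the partners. Its level was 2.77 and 2.58 FPKM with the vector and 1.01, 0.797 and 1.02 FPKM in shELK4_1, shELK4_2 and shELK4_3. The hairpins lay close to each other and far from the controls. The mean fell from 2.67 ± 0.134 FPKM (SD, n = 2) to 0.942 ± 0.126 FPKM (SD, n = 3), 35.2% of the control level, with a log2 fold change of −0.92 (SE 0.10, limma adjusted p = 0.0434). The limma call was lost under a pseudocount of 0.1 (adjusted p = 0.0549), when every gene above 0 entered (0.114), under a replicate block (0.0649) and without shELK4 replicate 1 or 3 (0.084 and 0.0806) or pLKO.1 replicate 1 or 2 (0.585 and 0.515). Its paralog SULF1 was listed at 0 in every sample.

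FGFBP1 (ENSG00000137440; chromosome 4, 15935577 to 15938740, minus strand) encodes a carrier that frees FGF ligands from the matrix. Its level was 3.57 and 3.93 FPKM with the vector and 8.24, 11.0 and 8.82 FPKM in the knockdown samples. Every hairpin was above both controls, and the mean was 2.49-fold higher. The log2 fold change of 1.12 (SE 0.13) missed the limit with an adjusted p of 0.0527 from limma. Each hairpin was higher than the control mean by at least 0.5 on log2(FPKM + 1), a scale that understates differences of low genes such as ANGPT2.

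The promoter sequences of SULF2 and MCAM and of FGFBP1 and SEMA3C are shown. Among genes with a promoter entry, these were the 2 lower and the 2 higher ones with the smallest p. PDGFB was lower with a smaller p than MCAM but had no entry. Each line gives the 250 bases before the transcription start in RefSeq (GRCh38.p14), 5′ to 3′ on the strand of the gene. Capitals mark matches, on either strand, to CCGGAA (the core bound by ETS factors), GGGCGG (the GC box bound by SP factors), ACGTG (the hypoxia response element core) or TGANTCA (AP-1).
SULF2, chr20:47786628-47786877, minus strand: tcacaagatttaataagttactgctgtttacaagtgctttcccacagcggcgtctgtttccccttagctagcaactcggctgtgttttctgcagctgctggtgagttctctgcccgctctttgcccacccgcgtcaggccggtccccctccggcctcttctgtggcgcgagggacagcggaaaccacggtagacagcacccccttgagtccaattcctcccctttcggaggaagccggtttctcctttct
MCAM, chr11:119317131-119317380, minus strand: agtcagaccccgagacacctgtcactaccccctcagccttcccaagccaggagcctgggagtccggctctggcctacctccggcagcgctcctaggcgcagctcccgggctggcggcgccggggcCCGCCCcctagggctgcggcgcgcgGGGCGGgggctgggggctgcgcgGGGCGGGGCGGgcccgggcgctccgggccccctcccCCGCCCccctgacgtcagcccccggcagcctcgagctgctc
FGFBP1, chr4:15938741-15938990, minus strand: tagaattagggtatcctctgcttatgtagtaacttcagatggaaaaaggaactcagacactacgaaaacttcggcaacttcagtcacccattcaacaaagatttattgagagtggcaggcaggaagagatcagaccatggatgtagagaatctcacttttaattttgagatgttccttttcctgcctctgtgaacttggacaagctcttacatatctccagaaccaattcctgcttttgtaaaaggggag
SEMA3C, chr7:80922390-80922639, minus strand: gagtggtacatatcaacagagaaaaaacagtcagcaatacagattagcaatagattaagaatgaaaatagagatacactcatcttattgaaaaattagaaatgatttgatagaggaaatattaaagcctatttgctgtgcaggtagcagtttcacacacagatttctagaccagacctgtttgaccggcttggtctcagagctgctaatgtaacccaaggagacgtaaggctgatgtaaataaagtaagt

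The RefSeq start of MCAM lies inside the span of the gene given below, which includes a longer transcript. The MCAM sequence held 5 GC boxes, of which a pair shares a base, and 79.6% G and C. The other 3 sequences held no match to any of the 4 motifs, with 56.8% G and C for SULF2, 40.8% for FGFBP1 and 36.4% for SEMA3C. Promoter sequences were held for 33 of the 44 genes. Over windows of 300 bases, from 250 before to 50 after the start, 20 of the 33 had a GC box (60.6%), compared with 73.3% of the promoters of tested genes and 44.6% of all promoters. An ETS core was found in 1 of the 33 (3.0%), that of TYMP, compared with 32.2% of the promoters of tested genes and 17.6% of all promoters. The hypoxia response element core was found in 6 of the 33 (18.2%; 27.4% of the promoters of tested genes and 21.6% of all promoters) and AP-1 in 4 of the 33 (12.1%; 4.3% and 7.8%). A match is a run of letters and no evidence of binding, and the windows say nothing of sites outside them.

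Among the VEGF family ligands, PGF was lower in the knockdown samples and VEGFA and VEGFB did not separate from the controls. PGF, which binds the receptor FLT1, had 6.95 and 7.54 FPKM with the vector and 5.11, 3.80 and 6.02 FPKM in the knockdown samples. All 3 hairpins lay below both controls, shELK4_2 furthest, with a log2 fold change of −0.48 (SE 0.17, limma, unadjusted p = 0.0249, adjusted p = 0.24). VEGFA, the main mitogen of endothelial cells, had 8.72 and 9.91 FPKM with the vector and 12.2, 6.61 and 11.5 FPKM in shELK4_1, shELK4_2 and shELK4_3. The hairpins fell on both sides of the controls. Its log2 fold change was 0.07 (limma, 95% interval −0.51 to 0.64, adjusted p = 0.917), so changes of either sign within that interval could not be told from none. VEGFB ranged from 6.85 to 8.15 FPKM over all 5 samples. VEGFC, a lymphatic growth factor, was listed at 0 in 4 samples and at 0.0393 FPKM in pLKO.1_1.

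Of the 6 heparin-binding growth factors and their carrier, 4 were tested, and FGFBP1 alone had an unadjusted p under 0.05. MDK (midkine) had 81.9 and 86.9 FPKM with the vector and 111, 144 and 58.5 FPKM in shELK4_1, shELK4_2 and shELK4_3. Its hairpins thus lay above the controls in 2 samples and below them in the third, with the widest range among the 32 genes, 1.28 on the log2 scale. HDGF had 94.3 and 97.3 FPKM with the vector and 90.1, 73.8 and 82.6 FPKM in the knockdown samples. The groups did not overlap, but the log2 fold change was only −0.22 (limma, unadjusted p = 0.0758). FGF2 ranged from 1.26 FPKM in shELK4_1 to 3.45 FPKM in shELK4_3, with both controls between them, and 11.8% of its exonic bases are shared with NUDT6. PTN, the close relative of MDK, was listed at 0 in all samples.

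FGF1, which all FGF receptors bind, stayed below the limit. It had 0.192 and 0.240 FPKM with the vector and 0.0431, 0.153 and 0.0378 FPKM in the knockdown samples. Every hairpin was below both controls, shELK4_2 closest to them. These levels rest on few fragments.

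The angiopoietins showed one low gene above its controls. ANGPT2 (ENSG00000091879), which antagonizes or activates the TEK receptor depending on context, had 0.186 and 0.220 FPKM with the vector and 1.07, 1.07 and 0.647 FPKM in the knockdown samples. All 3 hairpins lay above both controls, and the mean was 4.57-fold higher, while the log2 fold change on log2(FPKM + 1) was 0.67 (SE 0.13, limma, unadjusted p = 0.00165, adjusted p = 0.104). ANGPT2 passed the FPKM limit only through shELK4_1 and shELK4_2, so a difference from the controls was built in. Of its exonic sequence, 9.7% also belongs to MCPH1. ANGPT1, the stabilizing ligand of the same receptor, was listed at 0 throughout. ANGPTL4, a secreted lipase inhibitor that also acts on vessels, had 10.2 and 11.5 FPKM with the vector and 14.7, 7.12 and 12.4 FPKM with the 3 hairpins, on both sides of the controls.

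The 2 platelet-derived growth factors differed in their values. PDGFB (ENSG00000100311; chromosome 22, 39223359 to 39244982, minus strand), which recruits pericytes, had 6.57 and 6.88 FPKM with the vector and 3.26, 4.15 and 3.73 FPKM in the knockdown samples. Each hairpin was well below both controls, at a mean of 55.2% of the control level, with a log2 fold change of −0.72 (SE 0.11, limma, unadjusted p = 0.000461, adjusted p = 0.0743). PDGFA had 4.54 and 4.95 FPKM with the vector and 3.85, 3.43 and 5.20 FPKM in the knockdown samples, with overlapping groups. The difference between the 2 genes was not tested.

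Of 7 other secreted promoters, 6 were tested, and GRN and SRPX2 were lower with an unadjusted p under 0.05. GRN (progranulin, ENSG00000030582) had 70.2 and 72.4 FPKM with the vector and 54.3, 52.6 and 46.0 FPKM in the knockdown samples. All hairpins were below the controls by a similar amount, with a log2 fold change of −0.48 (SE 0.10, limma, unadjusted p = 0.00243, adjusted p = 0.117). SRPX2, a secreted ligand of the urokinase receptor, had 1.56 and 1.20 FPKM with the vector and 0.793, 0.796 and 0.412 FPKM in the knockdown samples (log2 fold change −0.52, limma, unadjusted p = 0.0102). SRPX2 passed the FPKM limit only through the controls, so a difference was built in. Exons of SYTL4 cover 52.0% of its exonic bases, so reads of the 2 genes may be mixed.

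ADM (adrenomedullin, a vasodilator peptide) had 44.4 and 45.8 FPKM with the vector and 54.6, 32.9 and 47.7 FPKM in shELK4_1, shELK4_2 and shELK4_3. As for VEGFA and ANGPTL4, 2 hairpins were above both controls and shELK4_2 below both. The remaining tested factors overlapped between the groups. They were ANG (angiogenin, 1.66 to 2.27 FPKM), which shares 34.4% of its exonic bases with other genes, RNASE4 first among them, TYMP (thymidine phosphorylase, also known as an endothelial cell growth factor, 11.7 to 16.5 FPKM) and ECM1 (1.57 to 3.96 FPKM, highest in shELK4_2). EDN1 (endothelin-1) was at 0.0472 to 0.143 FPKM.

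SEMA3C (ENSG00000075223; chromosome 7, 80742538 to 80922359, minus strand), a secreted guidance factor that binds neuropilins and plexins, had 6.59 and 6.77 FPKM with the vector and 12, 13.3 and 9.75 FPKM in the knockdown samples. Every hairpin was above both controls. The mean was 1.75-fold higher, with a log2 fold change of 0.71 (SE 0.14, limma, unadjusted p = 0.00141, adjusted p = 0.0997). Its coreceptors were scarce in these cells: NRP1 had 0.742 and 0.617 FPKM with the vector and 1.5, 0.283 and 0.8 FPKM with the hairpins, and NRP2 stayed between 0.202 and 0.287 FPKM.

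Only 3 of the 8 receptors and coreceptors reached the limit, and MCAM was the one whose groups separated. MCAM (CD146, ENSG00000076706; chromosome 11, 119308529 to 119321521, minus strand), an adhesion molecule best known from endothelium and melanoma, had 12.4 and 13.1 FPKM with the vector and 4.98, 7.39 and 4.0 FPKM in the knockdown samples. The hairpins lay at 42.8% of the control level on average, shELK4_2 closest to the controls. The log2 fold change was −1.12 (SE 0.21, limma, unadjusted p = 0.00131, adjusted p = 0.0997), and exons of other genes cover 7.7% of its exonic bases. EPHB4, the receptor of EFNB2, was at 22.0 and 22.5 FPKM with the vector and 24.3, 22.6 and 22.4 FPKM in the knockdown samples, with a log2 fold change of 0.05 (95% interval −0.16 to 0.26). RAMP1, a subunit of the CGRP receptor, ranged from 1.40 to 2.17 FPKM.

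CALCRL, which forms the adrenomedullin receptor together with RAMP2, stayed below the limit, with 0.152 and 0.175 FPKM with the vector and 0.404, 0.435 and 0.334 FPKM in the knockdown samples. All 3 hairpins were above both controls. RAMP2 itself was listed at 0 in 4 samples and at 0.0831 FPKM in pLKO.1_2, so the partner that makes CALCRL a receptor for adrenomedullin was barely detected. ENG (endoglin), an endothelial TGF-beta coreceptor, did not exceed 0.0673 FPKM.

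None of the 3 membrane-bound ligands had an unadjusted p under 0.05. EFNB2 had 3.65 and 3.30 FPKM with the vector and 7.51, 3.03 and 3.87 FPKM in shELK4_1, shELK4_2 and shELK4_3, so that only shELK4_1 stood far from the controls, and 36.4% of its exonic bases are shared with another annotated gene. JAG1, a Notch ligand, had 6.32 and 5.43 FPKM with the vector and 8.49, 5.82 and 8.26 FPKM with the hairpins. With all samples JAG1 had a log2 fold change of 0.30 (limma, unadjusted p = 0.119, adjusted p = 0.417). It was 0.45 without shELK4 replicate 2, the hairpin closest to the control mean (limma, unadjusted p = 0.00489). Without shELK4 replicate 1 and 3 it was 0.21 and 0.23 (limma, unadjusted p = 0.277 and 0.267). EFNA1 ranged from 8.08 to 11.1 FPKM with overlapping groups.

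In plasminogen activation, PLAU (urokinase) had 10.7 and 9.66 FPKM with the vector and 10.2, 14.9 and 6.06 FPKM in the knockdown samples. It was highest in shELK4_2 and lowest in shELK4_3, the order seen for MDK, and 31.0% of its exonic bases are shared with C10orf55. Its receptor gene PLAUR ranged from 2.32 to 3.40 FPKM, with both controls inside that range. Neither had an unadjusted p under 0.05.

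Of the 6 secreted inhibitors, 5 were tested and all 5 had a log2 fold change below 0. In limma 4 of the 5 were lower with an unadjusted p under 0.05, as were 8.14% of all tested genes. The genes and their sides were chosen with earlier results of these data known, so this count is a description. THBS1 (thrombospondin-1, ENSG00000137801; chromosome 15, 39581079 to 39599466, plus strand), a matrix glycoprotein known mainly as an inhibitor of endothelial growth, had 3.53 and 3.56 FPKM with the vector and 0.893, 2.32 and 1.66 FPKM in the knockdown samples. The hairpins differed widely among themselves, yet all lay below the controls. The log2 fold change was −0.83 (SE 0.22, limma, unadjusted p = 0.00857, adjusted p = 0.165).

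TIMP1 (ENSG00000102265), the most abundant of the metalloproteinase inhibitors here, had 99.4 and 101 FPKM with the vector and 53.0, 84.7 and 54.4 FPKM in the knockdown samples. The levels with shELK4_1 and shELK4_3 were close to one another, and shELK4_2 lay nearer to the controls (log2 fold change −0.67, SE 0.20, limma, unadjusted p = 0.0149, adjusted p = 0.201). TIMP3, which also blocks VEGF binding to its receptor KDR, had 1.52 and 1.62 FPKM with the vector and 1.03, 1.17 and 0.951 FPKM in the knockdown samples (log2 fold change −0.33, limma, unadjusted p = 0.0136). COL18A1, whose collagen chain releases endostatin, had 16.4 FPKM in each control and 11.7, 15.2 and 11.6 FPKM in the knockdown samples (log2 fold change −0.34, limma, unadjusted p = 0.0386), and SLC19A1 shares 18.5% of its exonic sequence. TIMP2 had 33.2 and 32.7 FPKM with the vector and 28.7, 32.8 and 24.8 FPKM with the hairpins, with overlapping groups. SERPINF1 (pigment epithelium-derived factor) stayed below the limit, at 0.0258 to 0.242 FPKM.

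For all 5 tested inhibitors the highest of the 3 hairpins was shELK4_2. The share of all tested genes with shELK4_2 highest was not computed, so no trait of the inhibitors can be read from this. The ELK4 level of shELK4_2, 2.82 FPKM, lay between those of the other 2 hairpins. Several of these calls rested on both controls being present. Without pLKO.1 replicate 1 or 2, the calls of PGF, TIMP1, TIMP3 and COL18A1 at an unadjusted p under 0.05 were lost, SRPX2 lost its own without pLKO.1 replicate 1, TIMP1 without shELK4 replicate 3, and COL18A1 without shELK4 replicate 1 or 3. The COL18A1 call was also lost in limma with every gene above 0 tested (unadjusted p = 0.0513), with quantile normalization (unadjusted p = 0.0601) and with a replicate block (unadjusted p = 0.081), 7 of the 11 alternatives in all. The number of lower genes was smaller without either control. In all 11 alternatives, SULF2, PDGFB, MCAM, GRN, THBS1, FGFBP1, SEMA3C and ANGPT2 kept an unadjusted p under 0.05 in limma. ANGPT2 passed the FPKM limit only through shELK4_1 and shELK4_2, so its call is no independent support.

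Which way the balance moved was asked by summing the levels of the 19 secreted promoters and of the 6 secreted inhibitors in each sample. Sides were assigned from general knowledge, with earlier results of these data known. THBS1 was counted as an inhibitor, whereas the study places it among proangiogenic genes. LRG1 and SERPINB5, described below, were in neither sum. ANGPT2, ANGPTL4, SEMA3C, SULF2, PLAU and the surface genes, among others, were put on neither side. The promoters summed to 351 and 365 FPKM with the vector and to 373, 360 and 299 FPKM in shELK4_1, shELK4_2 and shELK4_3. The inhibitors summed to 154 and 155 FPKM with the vector and to 95.6, 136 and 93.4 FPKM in the knockdown samples. The promoter sums thus overlapped between the groups, and every inhibitor sum was lower with a hairpin. The ratio of promoters to inhibitors was 2.27 and 2.36 in the controls and 3.90, 2.64 and 3.20 with the hairpins. TIMP1 alone was 55.5% to 64.9% of the inhibitor sum in each sample. The study reported less endothelial tube formation with medium from knockdown cells, and how this RNA ratio relates to that was not tested.

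**Figure D3:**
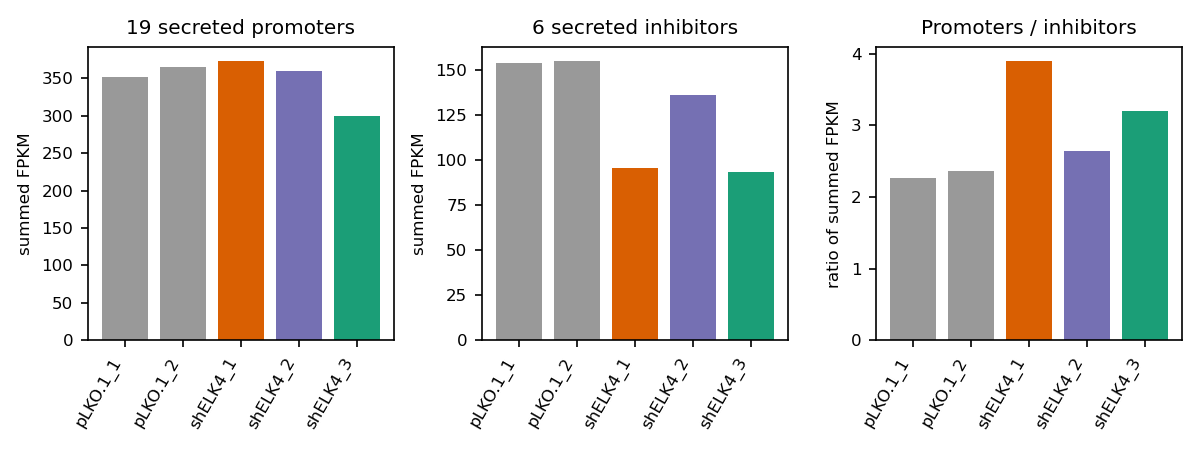
Summed FPKM of the 19 secreted promoters (left) and of the 6 secreted inhibitors (middle), and their ratio (right), with 1 bar per sample. The ratio is 2.27 and 2.36 in the grey controls and 3.90, 2.64 and 3.20 in the 3 hairpins, and the inhibitor bars of the hairpins are all lower than those of the controls.

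With each gene counted equally, medians were taken over both sides for each hairpin. Over the 15 tested promoters and 5 tested inhibitors, the median log2 difference from the control mean was −0.04 and −0.46 in shELK4_1, −0.37 and −0.24 in shELK4_2, and −0.07 and −0.47 in shELK4_3. The promoters minus the inhibitors thus gave 0.42 and 0.40 with shELK4_1 and shELK4_3 and −0.14 with shELK4_2, the last of which was −0.05 without pLKO.1 replicate 1 and −0.11 without pLKO.1 replicate 2. In shELK4_2, 11 of the 15 promoters were below the control mean, as against 9 in shELK4_1 and 8 in shELK4_3. The share of all tested genes below it was not computed. Their median difference was −0.022 in shELK4_2, −0.01 in shELK4_1 and 0.012 in shELK4_3. Between the 2 controls the median difference was 0.08 for promoters and 0.01 for inhibitors. With 1 sample per hairpin none of these differences can be tested.

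The number of genes far from the controls was counted for each hairpin. At least 0.5 below the control mean on the log2 scale were 5 of the 32 genes in shELK4_1 (2.98% of all tested genes), 5 in shELK4_2 (5.73%) and 9 in shELK4_3 (3.72%). At least 0.5 above it were 4 in shELK4_1 (4.59% of all tested genes), 6 in shELK4_2 (3.17%) and 2 in shELK4_3 (3.95%). Between the 2 controls no gene of the 32 differed by that much, and the largest difference was 0.29. MCAM, SULF2 and PDGFB were lower by at least 0.5 on log2(FPKM + 1) with every hairpin.

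All 3 hairpins lay below the control mean for 15 of the 32 genes, above it for 5 and on both sides for 12. The same shares over all tested genes were not computed, so no lean of the 32 genes can be read from these counts. The range among the hairpins had a median of 0.41 on the log2 scale, beside 0.27 over all tested genes, and it exceeded 0.75 for 8 of the 32 genes, beside 5.59% of all tested genes. VEGFA, ANGPTL4, ADM and EFNB2 were above both controls with shELK4_1 and shELK4_3 and below both with shELK4_2, an order found for 6.71% of all tested genes.

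**Figure D4:**
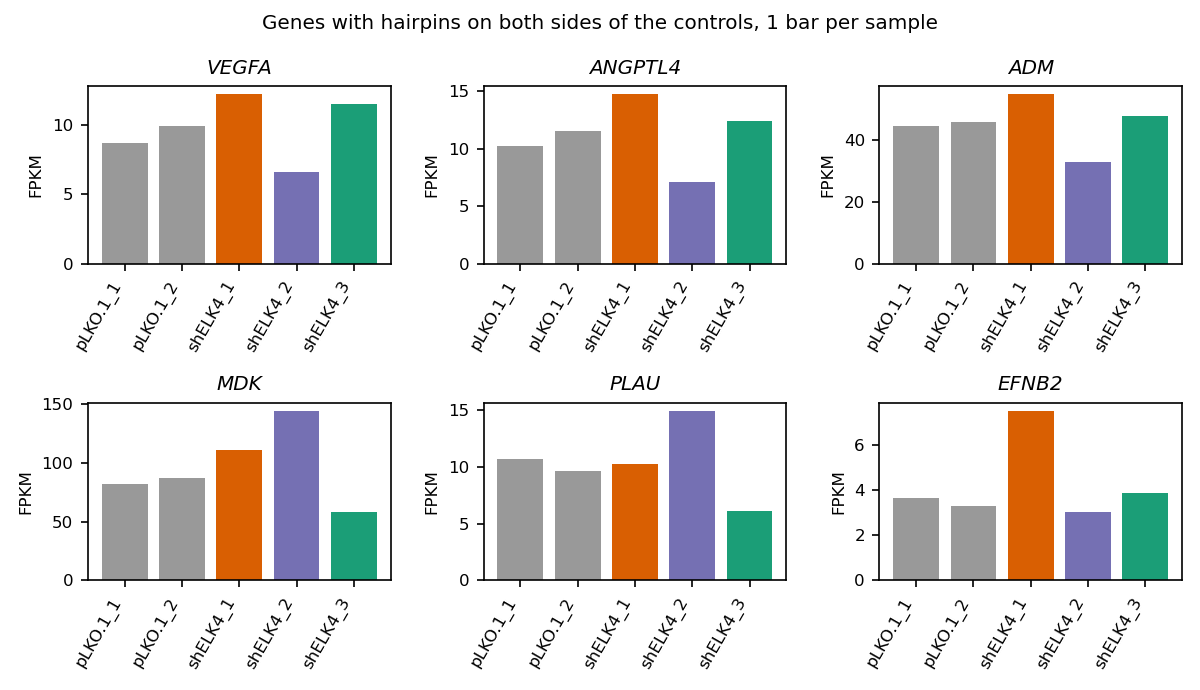
FPKM in each sample of 6 genes whose hairpins lie on both sides of the controls (grey bars, pLKO.1; colored bars, 1 per hairpin). VEGFA, ANGPTL4 and ADM are lowest in shELK4_2, whereas MDK and PLAU are highest there and lowest in shELK4_3, and EFNB2 is highest in shELK4_1.

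Leaving out shELK4 replicate 2 changed these calls. VEGFA then had a log2 fold change of 0.32 (limma, unadjusted p = 0.0182, adjusted p = 0.146), ANGPTL4 of 0.30 (limma, unadjusted p = 0.047, adjusted p = 0.216) and ADM of 0.17 (limma, unadjusted p = 0.111). The sample left out was the one below both controls for these genes, so agreement of the rest was fixed beforehand. Without shELK4 replicate 1 and 3 the values were −0.08 and −0.04 for VEGFA, −0.18 and −0.07 for ANGPTL4, and −0.18 and −0.09 for ADM. Of the 32 genes, 5 had an adjusted p under 0.05 in limma without shELK4 replicate 2 (MCAM 0.0273, SULF2 0.0392, PDGFB 0.0474, FGFBP1 0.0311 and TIMP1 0.0202). In that fit 6 genes were higher with an unadjusted p under 0.05 in place of 3. The share of all tested genes called in that fit was not computed, so the rise is not a result about the 32 genes. The further genes of vessel growth described below with an unadjusted p under 0.05 also rose, to 14 in place of 8. Leaving out shELK4 replicate 3 instead gave MDK a log2 fold change of 0.57 (limma, unadjusted p = 0.01) and ECM1 of 0.59 (limma, unadjusted p = 0.0283). Both genes had their lowest hairpin level in that sample, so a higher estimate had to follow. Without shELK4 replicate 2 the values were −0.07 for MDK and 0.17 for ECM1.

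Among other genes of vessel growth, written down as 2 lists from general knowledge, the shares that passed the unadjusted limit are given beside those of all tested genes (8.08% higher and 8.14% lower). Of 57 further ligands, proteases and inhibitors with values, 22 were tested, and 3 (13.6%) were higher and 2 (9.09%) lower with an unadjusted p under 0.05. LRG1, a secreted glycoprotein that acts on endothelial TGF-beta signaling, had 2.59 and 2.67 FPKM with the vector and 0.797, 0.493 and 0.131 FPKM in the knockdown samples. SERPINB5 (maspin), a serpin counted among the inhibitors, had 29.9 and 30.9 FPKM with the vector and 19.8, 14.4 and 16.4 FPKM in the knockdown samples, a log2 fold change of −0.82 (limma, unadjusted p = 0.000678, adjusted p = 0.0794). The 3 higher genes were FGF19 (log2 fold change 0.29), SEMA3F (0.30), a semaphorin that repels vessels, and SERPINE2 (0.38).

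Of 47 further receptors and cell-surface ligands, 25 were tested, 1 (4.0%) was higher and 2 (8.0%) were lower with an unadjusted p under 0.05, beside the same 8.08% and 8.14% of all tested genes. SDC4, a heparan sulfate proteoglycan that presents FGF ligands, had 86.5 and 91.4 FPKM with the vector and 57.7, 71.2 and 54.9 FPKM in the knockdown samples (log2 fold change −0.54, limma, unadjusted p = 0.0045, adjusted p = 0.136). LTK was the other lower gene (log2 fold change −0.47) and the ephrin EFNA4 the higher one (0.38). The median log2 fold change was 0.07 in each list. FLT1 was listed at 0 and KDR stayed under 0.07 FPKM, so the RNA of the main VEGF receptors was near or at 0 in these cells.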

How the data were processed

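RNA-seq of 5 HCT116 samples was used, with groups taken from the sample titles. Per the labels and the methods of the study, the authors made libraries from poly(A) RNA for an Illumina HiSeq instrument. The authors deposited gene-level FPKM from Cufflinks, scaled within each sample to its mapped reads. The submitters' processing notes also name Trimmomatic 0.36, HISAT2 2.0.5, Cufflinks 2.2.1 and HTSeq 0.9.1. The genome build, the annotation and the strandedness of the libraries are not given in the sources used here.

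Each table had 20030 entries, and 4 entries with 2 repeated names were dropped. The 10780 genes that had 2 or more samples at an FPKM of 1 or higher entered a limma fit (version 3.58.1, R 4.3.3) of log2(FPKM + 1) on condition alone, with a trended prior and Benjamini-Hochberg adjustment over all of them. A fold change on this scale understates that of low genes. No count test was run, since only 25.9% of 2274 low genes had values in whole-number ratios (within 3%) between samples. The relative depths were set before that check, from the most frequent ratio to pLKO.1_1 among genes with very low FPKM. The check used values scaled by these depths and led only to the rough absolute depth.

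The genes and lists were chosen with earlier results of these data known. The sides (promoter or inhibitor) come from general knowledge and were also written with those results known. Values in every sample were to be given for genes with an unadjusted p under 0.05, the 5 highest, the 3 with the widest hairpin range, and genes below the limit whose groups did not overlap; the others are given by range, or by sample where a pattern among hairpins is described. Up to 10 genes of each further list and direction were named by lowest p. Alternatives were a pseudocount of 0.1, every gene above 0 tested, a block on replicate number, leaving out each sample, median-of-ratios scaling, quantile normalization and a weight for each group. Gene positions and shared exonic bases are from GENCODE release 44 on GRCh38. Promoters are from RefSeq (GRCh38.p14). The last 50 bases of the window were found in a transcript of the same gene for 27 of 33 genes. Other steps used pandas 2.3.3 and numpy 2.4.6 under Python 3.11.15.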

Additional observations from a re-analysis of the deposited data

How the results depend on the processing

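The replicate number is shared by both groups for replicates 1 and 2 but belongs to separate samples, whose deviations from their group means had correlations of 0.0776 and 0.0225, so the numbers were not taken as pairs. In the block fit shELK4_3, alone with its number, adds nothing to the difference between the groups. Its fold changes equal those without shELK4 replicate 3 (−0.96 for MCAM in each), so the block and that omission are not independent alternatives. With the replicate block, 0 genes of the 32 had an adjusted p under 0.05 from limma in place of 1, and 5 were higher with an unadjusted p under 0.05 in place of 3. At an adjusted p under 0.05 the count was also 0 with a pseudocount of 0.1 and with every gene above 0 tested, where the unadjusted counts were 3 higher with 10 and 9 lower, and 9 with a weight for each group. Leaving out 1 sample at a time gave 0 to 5. In the same way the higher genes at an unadjusted p under 0.05 numbered 3 to 6, the lower ones 5 to 11 in place of 10, and the further genes of vessel growth 3 to 14 in place of 8. The change of ELK4 was −1.18 to −1.34 with a sample left out, and its adjusted p was above 0.05 without any sample other than shELK4 replicate 2 and, at −1.26, with every gene above 0 tested (0.114 from limma). The cause of these shifts was not tested, other than that fewer samples or more genes entered the fit. The shares of all tested genes called under these alternatives were not computed.

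None of the 13 genes with an unadjusted p under 0.05 reversed, and 8 of the 13 kept that p in all 11 alternatives. ANGPT2 and SRPX2, both among the 13, passed the FPKM limit only through the group where they were high, so their calls are no support. A sign change was seen for 10 genes with no call in the full data. With the replicate block these were VEGFA (−0.04), FGF2 (−0.19), ANGPTL4 (−0.07), PLAU (0.26) and PLAUR (0.12). PLAUR was at 0 with median-of-ratios scaling and ADM at 0.03 with quantile normalization. With a sample left out the ranges were −0.08 to 0.32 for VEGFA, −0.19 to 0.30 for FGF2, −0.07 to 0.57 for MDK, −0.18 to 0.30 for ANGPTL4, −0.06 to 0.21 for ANG, −0.18 to 0.17 for ADM, −0.18 to 0.05 for TYMP, −0.01 to 0.53 for EFNB2, −0.33 to 0.26 for PLAU and −0.09 to 0.12 for PLAUR. The promoters minus the inhibitors, recomputed with a pseudocount of 0.1, with median-of-ratios scaling and without either control, stayed between 0.34 and 0.52 for shELK4_1, −0.14 and −0.05 for shELK4_2 and 0.36 and 0.59 for shELK4_3. Depth limits the genes below about 0.1 FPKM, which rest on a few fragments.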
